A study of Mus musculus with 6 samples.

Results

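Genes of the T cell receptor complex and of the signalling steps next to it were followed in CD8-selected bone marrow cells of mice with bone marrow failure. The set held 37 genes, chosen by symbol as genes of the receptor complex, its kinases, its adaptors and its negative regulators. All 37 were found among the 54532 genes of the count table, and all 37 passed the filter on low counts, which left 13480 genes for testing. The question asked of them was which changed with ruxolitinib, and which of them departed from the genes of the CD3 chains and of the CD8 co-receptor.

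Ruxolitinib inhibits the kinases JAK1 and JAK2. The ruxolitinib group held 3 libraries (pools 1, 2 and 3) from female CByB6F1 mice with bone marrow failure that had been given the drug. The control group held 3 libraries (pools 4, 5 and 6) from female CByB6F1 mice with the same disease, labelled as untreated. CByB6F1 is an F1 hybrid mouse, and the mice of both groups were 2 to 5 months old. For every library the cells of 2 to 3 mice of a group were pooled after selection with CD8 microbeads, so the spread between libraries is a spread between pools and not between single mice. Neither the drug's dose, nor the length of treatment, nor the way the disease was induced is stated in the sources used here. CD8 is also carried by some dendritic cells, and the labels give no purity of the selected cells.

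The T cell receptor has no signalling part of its own and relies on the CD3 chains, whose cytoplasmic tails are phosphorylated by the kinase Lck, which the CD8 co-receptor brings close. The kinase Zap70 then docks on these tails and phosphorylates the membrane scaffold Lat and the adaptor Lcp2. Around these scaffolds the phospholipase Plcg1, the exchange factors Vav1 and Rasgrp1 and the kinase Prkcq are recruited, which leads to calcium entry, NFAT transcription factors in the nucleus and, through Bcl10 and Malt1, to NF-kappa B. Phosphatases and ubiquitin-binding proteins hold the cascade back.

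The stretches of DNA just upstream of 6 members are shown because the results turn on these genes. Cd3d, Cd3g, Cd3e and Cd8a stand for the receptor and co-receptor genes, Lat had the lowest log2 fold change of the members, and Ptpn6 had the highest. Each sequence is the 250 bases before the gene's start in RefSeq (GRCm38.p6), written 5′ to 3′ on the strand of the gene. They lie at chr9:44981536-44981785 (Cd3d, plus strand), chr9:44980432-44980681 (Cd3g, minus strand), chr9:45009612-45009861 (Cd3e, minus strand), chr6:71373177-71373426 (Cd8a, plus strand), chr7:126369569-126369818 (Lat, minus strand) and chr6:124738710-124738959 (Ptpn6, minus strand). Capitals mark the letters of 4 motifs on either strand, the ETS core AGGAAG, the RUNX core TGTGGT, the E-box CAGGTG and the TATA box TATAAA.
Cd3d: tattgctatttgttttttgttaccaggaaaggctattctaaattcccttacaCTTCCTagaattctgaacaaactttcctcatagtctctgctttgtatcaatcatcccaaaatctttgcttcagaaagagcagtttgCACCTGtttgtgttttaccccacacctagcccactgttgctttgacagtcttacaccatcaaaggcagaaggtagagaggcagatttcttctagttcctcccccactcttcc
Cd3g: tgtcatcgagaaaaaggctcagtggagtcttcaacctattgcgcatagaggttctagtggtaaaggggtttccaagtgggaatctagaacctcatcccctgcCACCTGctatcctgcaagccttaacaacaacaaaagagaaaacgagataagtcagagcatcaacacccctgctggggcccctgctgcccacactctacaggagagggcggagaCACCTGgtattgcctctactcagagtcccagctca
Cd3e: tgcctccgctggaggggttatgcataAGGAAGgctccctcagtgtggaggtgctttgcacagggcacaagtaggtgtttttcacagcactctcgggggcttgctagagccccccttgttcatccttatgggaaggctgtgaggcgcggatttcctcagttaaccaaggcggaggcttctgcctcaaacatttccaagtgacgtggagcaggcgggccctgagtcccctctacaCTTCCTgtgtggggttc
Cd8a: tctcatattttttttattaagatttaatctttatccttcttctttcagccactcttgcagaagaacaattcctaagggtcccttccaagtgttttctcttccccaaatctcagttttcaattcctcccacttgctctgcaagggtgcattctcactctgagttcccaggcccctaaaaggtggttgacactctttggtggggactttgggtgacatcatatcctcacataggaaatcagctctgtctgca
Lat: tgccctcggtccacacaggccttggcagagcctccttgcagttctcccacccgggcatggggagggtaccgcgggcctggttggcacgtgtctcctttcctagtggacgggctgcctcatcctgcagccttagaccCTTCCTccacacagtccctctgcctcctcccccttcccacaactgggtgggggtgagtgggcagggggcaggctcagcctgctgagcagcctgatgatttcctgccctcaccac
Ptpn6: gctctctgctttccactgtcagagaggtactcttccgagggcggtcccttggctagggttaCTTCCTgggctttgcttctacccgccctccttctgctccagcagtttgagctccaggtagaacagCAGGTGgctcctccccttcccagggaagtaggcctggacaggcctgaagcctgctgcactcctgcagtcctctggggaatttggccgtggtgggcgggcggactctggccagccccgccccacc

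The motif AGGAAG or its reverse complement was found in the windows of Cd3d, Cd3e, Lat and Ptpn6, and the E-box in those of Cd3d, Cd3g and Ptpn6. None of the 4 motifs was found in the window of Cd8a, which says only that these letters are not in these 250 bases. RefSeq windows were at hand for 28 of the 37 members, with 37 windows in all because some members have several starts. AGGAAG was present in 24 of the 37 windows (64.9%), against 29.5% of all 32851 promoter windows of the same length, and the E-box in 13 (35.1%), against 17.2%. The RUNX core was present in 5 windows (13.5%), against 14% of all windows, and TATAAA in 3 (8.11%), against 12.4%. A match is a description of the letters and not a binding site. The windows of Ptprc overlap each other, as do those of Themis, and so share sequence.

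Some members are neighbours in the genome. On chromosome 9 of mm10, Cd3g (44969572 to 44980431) and Cd3d (44981786 to 44987339) are transcribed away from each other with 1354 bases between them, and Cd3e (44998740 to 45009627) follows 11400 bases after Cd3d. Cd8b1 (71322788 to 71337494) and Cd8a (71373427 to 71379173) lie on the plus strand of chromosome 6, with 35932 bases between them. Cd5 and Cd6 are neighbours on chromosome 19, 50366 bases apart. Lat spans 126363824 to 126369570 on chromosome 7 and Ptpn6 spans 124720707 to 124738714 on chromosome 6, both on the minus strand.

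The ruxolitinib libraries held 13829808 to 14139605 counted reads and the control libraries 15740514 to 17708196. Levels are given as CPM, a gene's count over its library's size after edgeR's TMM scaling. The plot of marker lists shows how far the libraries of the groups differed in cell content. The summed level of the T cell receptor constant genes and Thy1 was 630.2 to 1978 CPM in ruxolitinib libraries and 4638 to 5541 CPM in control libraries, and 4 of 4 genes fell. Of 11 erythroid genes tested, 11 rose (summed level 125084 to 245273 CPM with ruxolitinib, 1916 to 2748 CPM in controls), and of 14 monocyte and macrophage genes, 14 rose (9031 to 14901 CPM with ruxolitinib, 1163 to 1558 CPM in controls). Of 12 granulocyte genes, 9 rose and 1 fell (8623 to 19932 CPM with ruxolitinib, 1560 to 6017 CPM in controls). Of 10 B cell genes, 9 rose (212 to 213 CPM with ruxolitinib, 9.69 to 12.3 CPM in controls), and the defining genes Ms4a1 and Pax5 had 0 counts in every control library. Of 10 dendritic cell genes, 5 rose and 3 fell (289 to 349 CPM with ruxolitinib, 371 to 422 CPM in controls). Of 6 natural killer cell genes, 3 were tested and 2 fell (76.3 to 173 CPM with ruxolitinib, 143 to 177 CPM in controls). Of 6 CD4 and regulatory T cell genes, 5 were tested and 2 rose (205 to 212 CPM with ruxolitinib, 67.5 to 87.8 CPM in controls), among them Cd4. In bulk RNA, fewer T cells in a pool and less RNA of a gene in each T cell cannot be told apart. The part of these other cells in the member results was not tested.

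**Figure D1:**
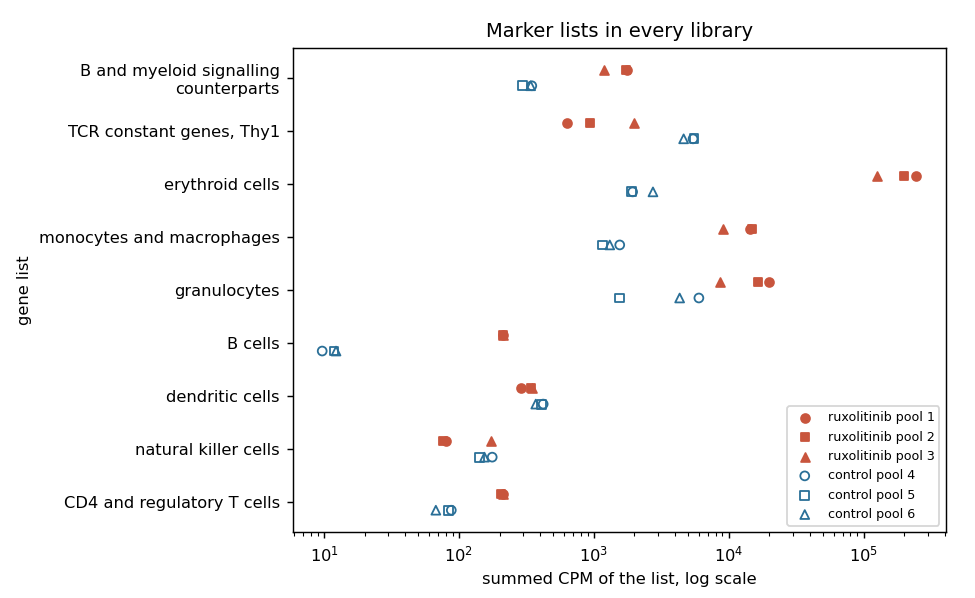
Summed CPM of each marker list (horizontal axis, log scale) in every library, with ruxolitinib pools 1 to 3 as filled red symbols and control pools 4 to 6 as open blue symbols, ruxolitinib above control in each row. The T cell receptor constant genes and Thy1 lay lower in every ruxolitinib library (630.2 to 1978 CPM) than in any control library (4638 to 5541 CPM), and the erythroid, monocyte, granulocyte and B cell lists lay higher.

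Most members were lower with ruxolitinib and none passed the test as higher. With edgeR's quasi-likelihood test and a Benjamini-Hochberg adjusted p under 0.05 over all genes tested, 25 of 37 members fell, 0 rose and 12 did not pass. Over all 13480 genes, 25.3% fell and 29.9% rose. At an unadjusted p under 0.05 a single member, Ptpn6, was higher, and DESeq2 and limma-voom each called 1 member, Ptpn6, as higher. The median log2 fold change of the members (ruxolitinib over control) was -1.18, against 0.03 for all genes, and members ranged between -2.84 (Lat) and 0.78 (Ptpn6). In 22 members every ruxolitinib library lay below every control library, which held for 30.3% of all genes, and in 1 member every ruxolitinib library lay above (35.7% of all genes).

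The number of members that fell depended on the pools, since 3 libraries a group leave little room. Leaving out ruxolitinib pool 1 left 9 members called, ruxolitinib pool 2 left 13, control pool 5 left 15, and ruxolitinib pool 3 left 26. The shares of all genes called in these fits were not counted, so these numbers cannot be read as particular to the members. The 9 members Cd3d, Cd8a, Cd8b1, Lck, Zap70, Lat, Skap1, Sit1 and Ptpn22 passed in each of the 6 fits that left out a pool. Each edgeR p sets the difference between the groups against the spread between pools, which edgeR estimates with information from all genes tested.

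**Figure D2:**
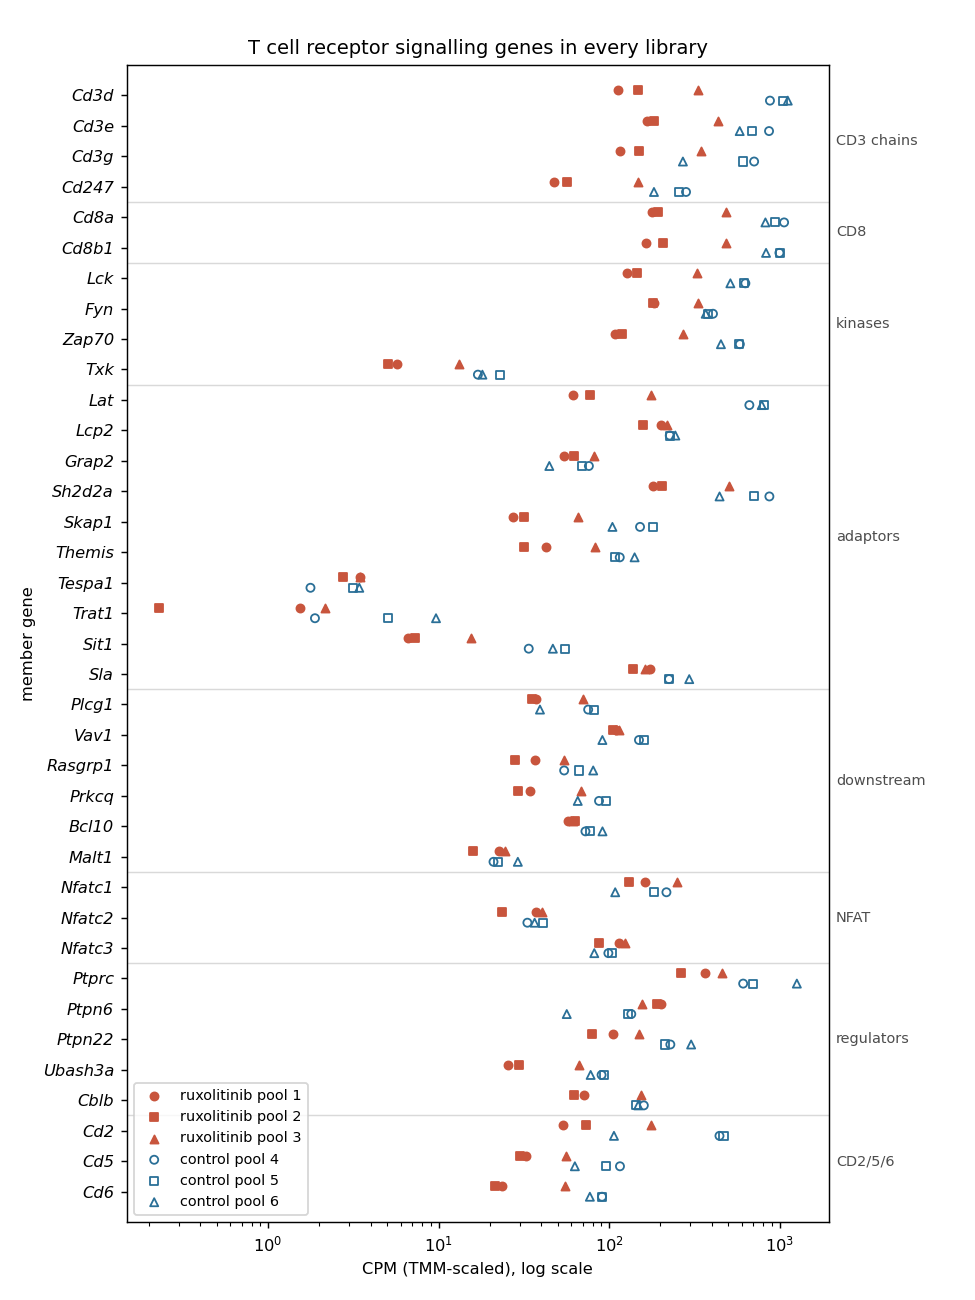
CPM of each of the 37 members (rows, ordered by role) in every library on a log scale, with ruxolitinib pools 1 to 3 as filled red symbols above control pools 4 to 6 as open blue symbols. In most rows the red symbols lie to the left, with ruxolitinib pool 3 nearest to the controls, whereas the NFAT rows overlap and Ptpn6 lies to the right.

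All 6 CD3 and CD8 genes fell, with log2 fold changes of -2.36 to -1.38 and a median of -1.62. Cd3d, which encodes the CD3 delta chain, had 113, 148 and 334 CPM with ruxolitinib, against 878, 1053 and 1116 CPM in controls. Single libraries are given in the order of their pool numbers. Cd3d fell by 2.36 ± 0.40 on the log2 scale (SE, edgeR adjusted p = 0.000938). Cd3d was lower in every ruxolitinib library than in any control library, and ruxolitinib pool 3 stood above pools 1 and 2. Cd3e, the CD3 epsilon chain present in both CD3 pairs of the receptor, had 166, 184 and 435 CPM with ruxolitinib, against 867, 689 and 583 CPM in controls. It fell by 1.45 ± 0.38 (edgeR adjusted p = 0.00952). The groups did not overlap, and ruxolitinib pool 3 and control pool 6 lay nearest to each other.

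Cd3g, which encodes the CD3 gamma chain, had 116, 149 and 348 CPM with ruxolitinib, against 709, 612 and 271 CPM in controls. It fell by 1.38 ± 0.46 (edgeR adjusted p = 0.0299). The groups overlapped for this gene because control pool 6 lay below ruxolitinib pool 3. Cd247, which encodes the zeta chain that carries most of the receptor's phosphorylation motifs, had 47.3, 56.8 and 148 CPM with ruxolitinib, against 283, 256 and 183 CPM in controls, and fell by 1.52 ± 0.41 (edgeR adjusted p = 0.0110). Its ruxolitinib libraries all lay below its control libraries.

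Cd8a, the alpha chain of the co-receptor and the basis of the selection, had 179.6, 193 and 486 CPM with ruxolitinib, against 1062, 945 and 826 CPM in controls. Cd8b1, the beta chain found with the alpha chain on conventional CD8 T cells, had 165, 207 and 482 CPM with ruxolitinib, against 998, 1009 and 833 CPM in controls. Neither gene overlapped between groups, and their fold changes differed by little (-1.72 ± 0.39 and -1.73 ± 0.39, edgeR adjusted p = 0.00441 and 0.00436). The RNA of the chain used for the selection was thus measured at a lower level in the ruxolitinib libraries. Without ruxolitinib pool 3 the 6 genes had log2 fold changes of -2.97 to -2.0 with a median of -2.28. Without ruxolitinib pool 1, Cd3e, Cd3g and Cd247 no longer passed (edgeR adjusted p = 0.0572, 0.134 and 0.0600). Cd3g also did not pass when no filter on low counts was used (adjusted p = 0.0670), without ruxolitinib pool 2 (adjusted p = 0.111) or without either of control pools 4 (0.0850) and 5 (0.0690), nor Cd247 without ruxolitinib pool 2 (0.0507).

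All 4 tyrosine kinase genes fell, with a median log2 fold change of -1.42. Lck, the kinase bound to CD8 that starts the cascade, averaged 200.02 ± 110.3 CPM with ruxolitinib and 588 ± 63.8 CPM in controls (SD, n = 3 each), a log2 fold change of -1.55 ± 0.36 (edgeR adjusted p = 0.00491). Zap70, the kinase that docks on phosphorylated CD3 tails, averaged 166 ± 91.2 CPM with ruxolitinib and 538 ± 73.7 CPM in controls (-1.70 ± 0.36, edgeR adjusted p = 0.00320). Neither gene overlapped between groups.

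Fyn, a Src-family kinase that works beside Lck and is used by many other cells, had 183, 182 and 332 CPM with ruxolitinib and 407, 379.9 and 369 CPM in controls. Its fall of 0.73 ± 0.27 on the log2 scale (edgeR adjusted p = 0.0460) was the smallest of the 4. Txk, a Tec-family kinase of T cells, was the least abundant of the 4, with 5.71, 5.02 and 13.1 CPM with ruxolitinib and 17, 22.9 and 18.1 CPM in controls (-1.28 ± 0.37, edgeR adjusted p = 0.0149). Fyn and Txk did not overlap between groups, but neither passed without ruxolitinib pool 1 (adjusted p = 0.208 and 0.0881), ruxolitinib pool 2 (0.156 and 0.0592) or control pool 5 (0.109 and 0.0529), and Fyn did not pass without control pool 4 (0.121) or with upper-quartile factors (0.0588).

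Of the 10 scaffold and adaptor genes, 7 fell, 3 did not pass and the median log2 fold change was -1.20. They were the most varied group, with Lat at the low end and Tespa1 at the high end. Lat, the membrane scaffold that Zap70 phosphorylates, had 61.3, 77.1 and 177 CPM with ruxolitinib, against 665, 806 and 786 CPM in controls. It fell by 2.84 ± 0.40 on the log2 scale (edgeR adjusted p = 0.000354), the lowest value of the 37 members. Every ruxolitinib library was far below every control library, and the fold change lay between -3.45 and -2.52 when single pools were left out. Per kilobase of the deposited gene length, Lat averaged 38.0 CPM with ruxolitinib and 272 CPM in controls, a level in controls that only Cd3d (109 with ruxolitinib, 559.5 in controls) and Cd8b1 (192 with ruxolitinib, 638 in controls) exceeded among the members.

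Sit1, a transmembrane adaptor that dampens receptor signals, fell by 2.20 ± 0.36 (edgeR adjusted p = 0.000738). Its levels were 6.66, 7.22 and 15.5 CPM with ruxolitinib, against 33.8, 55.2 and 46.8 CPM in controls, without overlap. Skap1, an adaptor that links the receptor to integrin adhesion, fell by 1.82 ± 0.36 (edgeR adjusted p = 0.00207). It averaged 41.4 ± 21.0 CPM with ruxolitinib and 146 ± 38.6 CPM in controls (SD, n = 3 each), again without overlap.

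Themis, a T cell protein that sets the strength of receptor signals during thymic selection, averaged 52.3 ± 26.6 CPM with ruxolitinib and 121 ± 17.5 CPM in controls (SD, n = 3 each). It fell by 1.21 ± 0.33 (edgeR adjusted p = 0.0112) and did not overlap between groups. Sh2d2a, the T cell-specific adaptor that binds Lck, averaged 296 ± 179.8 CPM with ruxolitinib and 673 ± 215 CPM in controls (-1.18 ± 0.42, edgeR adjusted p = 0.0354). Its groups overlapped, since ruxolitinib pool 3 at 503 CPM lay above control pool 6 at 444 CPM. Trat1, an adaptor associated with the receptor complex, was scarce, with 1.54, 0.228 and 2.15 CPM with ruxolitinib and 1.88, 5.04 and 9.66 CPM in controls. Its fold change of -2.06 ± 0.74 (edgeR adjusted p = 0.0380) had the largest error of the members, its groups overlapped, and limma-voom did not call it (adjusted p = 0.0609). Sla, which lowers receptor levels by guiding CD3 to degradation and is also used by other blood cells, had 174, 138 and 162 CPM with ruxolitinib and 225, 226 and 295 CPM in controls (-0.65 ± 0.21, edgeR adjusted p = 0.0264), without overlap.

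Sh2d2a, Trat1 and Sla did not pass without ruxolitinib pool 1 (edgeR adjusted p = 0.159, 0.108 and 0.0661), ruxolitinib pool 2 (0.128, 0.0944 and 0.0938) or control pool 5 (0.0748, 0.0531 and 0.0601). Themis did not pass without ruxolitinib pool 1 (0.0774), Sh2d2a without control pool 4 (0.108), and Trat1 without control pool 6 (0.132). Sh2d2a stood at -1.81 without ruxolitinib pool 3.

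Lcp2, Grap2 and Tespa1 did not pass. Lcp2, the cytosolic adaptor that joins Lat to the exchange factor Vav1 and is also used by platelets, mast cells and macrophages, had 203, 157 and 217 CPM with ruxolitinib and 227, 228 and 245 CPM in controls. Its log2 fold change was -0.28 ± 0.21 (edgeR adjusted p = 0.281), although all ruxolitinib values lay below all control values. Grap2, the adaptor that bridges Lat and Lcp2, had 54.7, 62.6 and 81.7 CPM with ruxolitinib and 76.1, 69.7 and 44.6 CPM in controls (0.06 ± 0.25, edgeR adjusted p = 0.842). Grap2 overlapped between groups, and its sign turned to -0.12 without ruxolitinib pool 3 and to -0.15 without control pool 6. Tespa1, a thymocyte protein that takes part in the Lat complex, had 3.44, 2.74 and 3.48 CPM with ruxolitinib and 1.77, 3.14 and 3.43 CPM in controls (0.21 ± 0.39, edgeR adjusted p = 0.654). Tespa1 overlapped between groups, and its value was -0.02 without control pool 4.

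Of the 6 enzymes and exchange factors downstream, Rasgrp1 and Prkcq fell, 4 did not pass and the median log2 fold change was -0.43. Rasgrp1, the exchange factor that activates Ras in T cells, had 36.5, 28.0 and 54.4 CPM with ruxolitinib and 54.5, 66.2 and 80.7 CPM in controls. It fell by 0.76 ± 0.27 (edgeR adjusted p = 0.0378), and ruxolitinib pool 3 and control pool 4 were almost equal. Prkcq, the kinase that leads to NF-kappa B, had 34.4, 29.3 and 68.6 CPM with ruxolitinib and 87.3, 95.7 and 65.5 CPM in controls (-0.91 ± 0.32, edgeR adjusted p = 0.0363). Its groups overlapped at ruxolitinib pool 3 and control pool 6. Neither gene passed without ruxolitinib pool 1 (adjusted p = 0.162 and 0.174), ruxolitinib pool 2 (0.130 and 0.126) or control pool 5 (0.0879 and 0.112), Rasgrp1 did not pass without control pool 6 (0.0795) or with upper-quartile factors (0.0513), and Prkcq did not pass without control pool 4 (0.0803). Prkcq stood at -1.38 without ruxolitinib pool 3.

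Plcg1, the phospholipase whose products release calcium, had 37, 35.5 and 70.4 CPM with ruxolitinib and 75.4, 81.7 and 39.3 CPM in controls (-0.46 ± 0.34, edgeR adjusted p = 0.278). Control pool 6 had about the level of ruxolitinib pools 1 and 2, and ruxolitinib pool 3 lay near control pools 4 and 5. Vav1, an exchange factor of most blood cells, had 109, 106 and 114 CPM with ruxolitinib and 149.7, 161 and 91.3 CPM in controls (-0.29 ± 0.24, edgeR adjusted p = 0.325). Control pool 6 again lay lowest, and without it Vav1 stood at -0.51 and passed (adjusted p = 0.0243). With limma-voom and sample quality weights Plcg1 and Vav1 both passed as lower (adjusted p = 0.00269 and 0.0116).

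Bcl10 and Malt1 form the signalling complex that activates NF-kappa B in lymphocytes and myeloid cells. Bcl10 had 57.7, 63.2 and 61.7 CPM with ruxolitinib and 72.7, 77.7 and 91.4 CPM in controls (-0.40 ± 0.19, edgeR adjusted p = 0.0885). Malt1 had 22.5, 16.0 and 24.7 CPM with ruxolitinib and 21.0, 22.4 and 29.2 CPM in controls (-0.20 ± 0.24, edgeR adjusted p = 0.505). Bcl10 did not overlap between groups and Malt1 did.

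None of the 3 NFAT transcription factor genes passed, with edgeR's test at an adjusted or an unadjusted p under 0.05 (0 of 3 in each case), and DESeq2 and limma-voom called 0 of 3. Their median log2 fold change was 0.09. Nfatc1, an NFAT gene that T cells raise on activation, had 163, 130.003 and 249 CPM with ruxolitinib and 217, 183 and 109 CPM in controls (0.09 ± 0.32, edgeR adjusted p = 0.817). Nfatc2, the NFAT present in resting T cells, had 37.1, 23.6 and 40.6 CPM with ruxolitinib and 33.2, 40.9 and 36.6 CPM in controls (-0.13 ± 0.24, edgeR adjusted p = 0.675). Nfatc3, an NFAT with a role in thymocyte survival, had 114, 87.7 and 124 CPM with ruxolitinib and 99.0, 104 and 81.9 CPM in controls (0.20 ± 0.21, edgeR adjusted p = 0.447). All 3 genes overlapped between groups. The sign of Nfatc1 turned without ruxolitinib pool 3 (-0.22) or control pool 6 (-0.16), and that of Nfatc2 without ruxolitinib pool 2 (0.08).

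Of the 5 phosphatase and ubiquitin-binding regulator genes, Ptprc, Ptpn22 and Ubash3a fell and Ptpn6 and Cblb did not pass. Ptprc, the surface phosphatase CD45 that keeps Lck ready and marks nearly all white blood cells, had 366, 264 and 459 CPM with ruxolitinib and 611, 702 and 1262 CPM in controls. It fell by 1.24 ± 0.34 (edgeR adjusted p = 0.0110) without overlap, and control pool 6 stood far above the other two control pools. Ptpn22, a phosphatase that inactivates Lck and Zap70, averaged 112 ± 35.8 CPM with ruxolitinib and 248 ± 47.9 CPM in controls (-1.15 ± 0.27, SD of levels over n = 3 each, edgeR adjusted p = 0.00573), without overlap. Ubash3a, a T cell protein that dampens receptor signals, averaged 40.5 ± 22.5 CPM with ruxolitinib and 87.2 ± 8.20 CPM in controls (-1.11 ± 0.34, edgeR adjusted p = 0.0199), also without overlap. Ptprc and Ubash3a did not pass without ruxolitinib pool 1 (adjusted p = 0.0556 and 0.105) or ruxolitinib pool 2 (0.0512 and 0.0810), nor Ubash3a without control pool 5 (0.0515). Ubash3a stood at -1.67 without ruxolitinib pool 3.

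Ptpn6 had the highest fold change of the members. It encodes the phosphatase SHP-1, an inhibitor of receptor signals that myeloid, erythroid and B cells also make. It had 200.4, 192 and 156 CPM with ruxolitinib, against 135, 129 and 56.4 CPM in controls. Every ruxolitinib library lay above every control library, yet the log2 fold change of 0.78 ± 0.32 did not pass (edgeR adjusted p = 0.0599). It passed with DESeq2 (adjusted p = 0.0272), limma-voom (0.0417), limma-voom with sample quality weights (0.0166), RLE factors (0.0464), upper-quartile factors (0.0467), no filter on low counts (0.0229) and without control pool 4 (0.0326). With edgeR it did not pass without ruxolitinib pool 1 (adjusted p = 0.133), pool 2 (0.137) or pool 3 (0.0703). Nor did it pass without control pool 5 (0.0507) or pool 6 (0.0618). Of 15 alternatives, 8 left it short of the threshold. In the same libraries the summed monocyte and macrophage level was 9031 to 14901 CPM with ruxolitinib and 1163 to 1558 CPM in controls. Within the ruxolitinib group pool 3 was lowest for Ptpn6 and for that list. Among controls the order differed. Control pool 6 was lowest for Ptpn6 (56.4 CPM), but for the list control pool 5 was lowest (1163 CPM, against 1314 CPM in pool 6). The part of monocytes and macrophages in the level of Ptpn6 was not tested.

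Cblb, a ubiquitin ligase that restrains T cells, had 71.0, 62.4 and 153 CPM with ruxolitinib and 159.8, 144 and 148 CPM in controls (-0.66 ± 0.32, edgeR adjusted p = 0.109). Ruxolitinib pools 1 and 2 lay below all controls and pool 3 lay among them. Without ruxolitinib pool 3, Cblb stood at -1.18 and passed (adjusted p = 0.00228), and it also passed with no filter on low counts (0.0429) and with limma-voom and sample quality weights (0.00231).

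The 3 surface receptor genes Cd2, Cd5 and Cd6 fell. Cd2, the adhesion receptor that adds to T cell activation, had 53.4, 73.2 and 177 CPM with ruxolitinib and 444, 469 and 107 CPM in controls (-1.75 ± 0.58, edgeR adjusted p = 0.0271). Its groups overlapped, because control pool 6 had 0.234 times the mean of control pools 4 and 5, the lowest such ratio of all members. Cd5, an inhibitory receptor whose level follows the strength of receptor signals, had 32.3, 29.9 and 55.8 CPM with ruxolitinib and 116, 95.3 and 63.0 CPM in controls (-1.21 ± 0.31, edgeR adjusted p = 0.00780). Cd6, a related receptor, had 23.5, 21.4 and 55.2 CPM with ruxolitinib and 90.9, 90.3 and 77.1 CPM in controls (-1.36 ± 0.34, edgeR adjusted p = 0.00793). Cd5 and Cd6 did not overlap between groups. The 3 genes did not pass without ruxolitinib pool 1 (adjusted p = 0.122, 0.0534 and 0.0565), and Cd2 was not called when no filter on low counts was used (0.181), without ruxolitinib pool 2 (0.101) or without either of control pools 4 (0.0584) and 5 (0.0695). Cd2 stood at -2.43 without ruxolitinib pool 3.

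**Figure D3:**
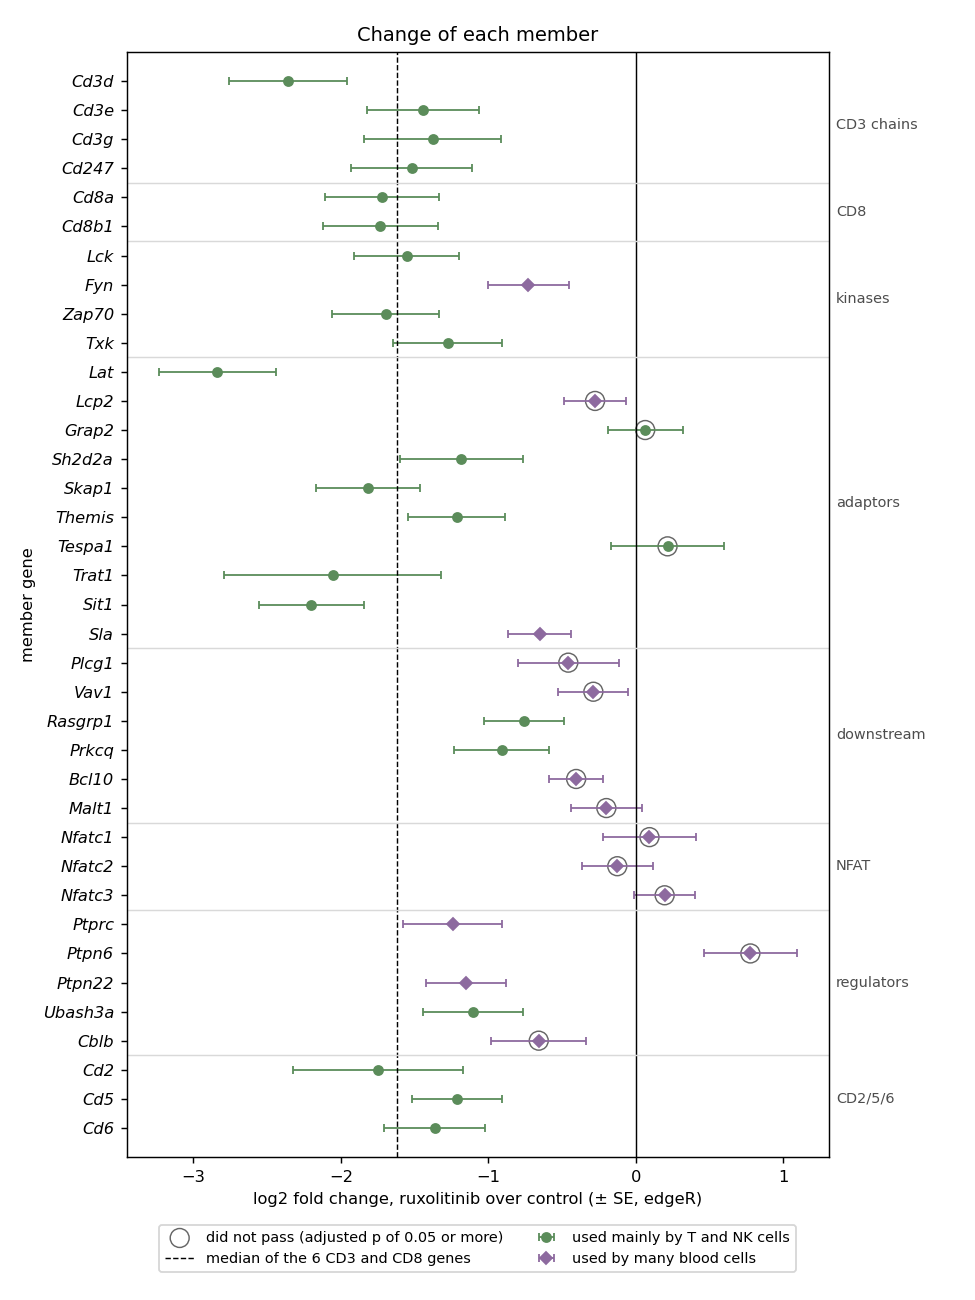
Log2 fold change, ruxolitinib over control, of each member with its SE from edgeR, grouped by role; the dashed line is the median of the 6 CD3 and CD8 genes (-1.62) and ringed points did not pass. Lat lies furthest left at -2.84, Ptpn6 furthest right at 0.78, and the ringed points are mostly members used by many blood cells.

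The second question was which members departed from the CD3 and CD8 genes. Each library was scaled to the geometric mean of Cd3d, Cd3e, Cd3g, Cd247, Cd8a and Cd8b1, which was 120.4, 144.7 and 347.2 CPM with ruxolitinib and 738, 690.5 and 530.2 CPM in controls. On this scale a value of 0 means the same change as those 6 genes. The median of all genes moved to 1.98 and the median SE to 0.638, against 0.297 with TMM, so modest departures could not be called. These SEs rest on a spread that edgeR estimates with information from all genes tested. The SE of a member on this scale is thus not the spread of its own ratios alone.

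The 6 genes of the scale did not change by the same amount in every library. Each was tested against the geometric mean of the other 5, and none passed with edgeR (adjusted p between 0.189 and 0.934), while of all genes 0.601%, 0.415%, 0.430%, 0.460%, 0.467% and 0.467% were lower and 62.7%, 69.8%, 71.8%, 69.9%, 67.8% and 67.7% higher in the fits of Cd3d, Cd3e, Cd3g, Cd247, Cd8a and Cd8b1. Cd3d had 92.5, 102 and 95.4 reads per 100 reads of the other 5 with ruxolitinib, against 123, 166 and 244 in controls. Its departure of -0.88 ± 0.60 on the log2 scale did not pass (edgeR adjusted p = 0.189). All ruxolitinib ratios lay below all control ratios (p = 0.1 by an exact two-sided permutation of the libraries, which can give no smaller p with 3 a group). Without ruxolitinib pool 3 the departure of Cd3d was -0.87 and passed (edgeR adjusted p = 0.0452). It did not pass in the other 7 of 8 alternatives. With single pools left out its edgeR adjusted p was as high as 0.463, and without control pool 6 the departure was -0.58. The ratios were close together among ruxolitinib pools and spread among controls.

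Cd3g had 95.9, 104 and 100.2 reads per 100 of the other 5 with ruxolitinib and 95.3, 86.5 and 44.7 in controls, so control pool 6 stood apart for this gene. The departures were 0.40 ± 0.57 for Cd3g, 0.31 ± 0.59 for Cd3e and 0.17 ± 0.58 for Cd247. For Cd3g, Cd3e and Cd247 all ruxolitinib ratios lay above all control ratios (p = 0.1 each by the same exact permutation test). Cd8a (-0.06 ± 0.59) and Cd8b1 (-0.08 ± 0.59) had ratios that overlapped between groups. Cd3g and Cd3d, the neighbours with 1354 bases between them, thus differed in the sign of their departure. Each is part of the scale of the other, so a low Cd3d by itself raises the departure of Cd3g. The difference between them was not tested.

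Among the 31 members outside the scale, 0 were lower and 12 were higher relative to the CD3 and CD8 genes, and 19 did not pass. Over all genes, 0.467% were lower and 68.5% were higher, so the share of members that were higher lay below the background. At an unadjusted p under 0.05 a single member, Lat, was lower, and DESeq2 called Lat as lower. In reads per 100 reads of the CD3 and CD8 genes, every ruxolitinib library lay above every control library for 20 of the 31 members (68.5% of all genes) and below for 1, Lat (1.25% of all genes).

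Lat had 50.9, 53.3 and 50.9 reads per 100 reads of the CD3 and CD8 genes in ruxolitinib pools 1, 2 and 3, against 90.1, 117 and 148 in control pools 4, 5 and 6. Its ratio was nearly the same in the 3 ruxolitinib pools although their CD3 and CD8 level lay between 120.4 and 347.2 CPM, and every control pool lay higher. The departure of -1.19 ± 0.59 on the log2 scale did not pass with edgeR (adjusted p = 0.0623). It passed with DESeq2 (adjusted p = 0.0112), with limma-voom and sample quality weights (7.61e-08) and without ruxolitinib pool 3 (0.00451), and not with plain limma-voom (0.0651). With edgeR it did not pass without ruxolitinib pool 1 (adjusted p = 0.146) or pool 2 (0.151). Nor did it pass without control pool 4 (0.113), pool 5 (0.167) or pool 6 (0.193). Of 15 alternatives, 12 left it short of the threshold. The fit with quality weights called 22 members as higher, the most of any setting. It gave very small p for many members, down to an adjusted p of 4.84e-50 for Ptpn6, so its p for Lat carries little weight. Relative to the T cell receptor constant genes and Thy1 in place of the CD3 and CD8 genes, it was -0.79 (edgeR adjusted p = 0.217). Over all alternatives its adjusted p lay between 7.61e-08 and 0.217.

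The kinases Lck and Zap70 and the adaptor Skap1 changed by about as much as the CD3 and CD8 genes. Their edgeR SEs, which draw on all genes tested, were too large to show that they moved alike. Lck had 106, 100.1 and 94.2 reads per 100 with ruxolitinib and 85.3, 89.7 and 97 in controls (0.14 ± 0.59, edgeR adjusted p = 0.829). Zap70 had 89.9, 81.8 and 78.1 with ruxolitinib and 79.2, 83.4 and 85.4 in controls (0.01 ± 0.58, edgeR adjusted p = 0.989). Skap1 had 22.5, 21.8 and 18.9 with ruxolitinib and 20.6, 26.2 and 19.7 in controls (-0.08 ± 0.58, edgeR adjusted p = 0.911). Ratios of these 3 genes overlapped between groups. Within groups the ratios lay close together, with means of 100.2 ± 6.10 and 90.7 ± 5.89 for Lck (ruxolitinib and control, SD, n = 3 each). The means were 83.2 ± 6.04 and 82.7 ± 3.15 for Zap70, and 21.1 ± 1.94 and 22.2 ± 3.54 for Skap1.

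Ratios of several T cell members were higher in every ruxolitinib library than in any control library without passing the test. Groups were separated in this way for 9 of the 17 T and natural killer cell members outside the scale, Grap2 and Tespa1 among them. This share was below that of all genes (68.5%). Sh2d2a had 149.6, 142 and 145 reads per 100 with ruxolitinib and 118, 102 and 83.8 in controls (0.52 ± 0.59, edgeR adjusted p = 0.419). Ubash3a had 21.1, 20.5 and 19.1 with ruxolitinib and 12.2, 13.5 and 14.7 in controls (0.58 ± 0.59, edgeR adjusted p = 0.365). Prkcq had 28.6, 20.2 and 19.7 with ruxolitinib and 11.8, 13.9 and 12.3 in controls (0.85 ± 0.59, edgeR adjusted p = 0.184). These 3 genes did not overlap between groups on this scale.

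The 12 members that were higher relative to the CD3 and CD8 genes were Ptpn6, Nfatc3, Grap2, Nfatc1, Nfatc2, Vav1, Tespa1, Malt1, Lcp2, Bcl10, Plcg1 and Sla. On this scale the median log2 fold change of all genes was 1.98 and 68.5% of them were higher. Of the 12, Ptpn6, Nfatc3 and Tespa1 lay above that median and the others below it. Ptpn6 had 166, 133 and 45.1 reads per 100 with ruxolitinib, against 18.3, 18.7 and 10.6 in controls (2.85 ± 0.63, edgeR adjusted p = 2.15e-05). Nfatc3 had 95, 60.6 and 35.7 with ruxolitinib, against 13.4, 15 and 15.4 in controls (2.12 ± 0.61, edgeR adjusted p = 0.00118). In both genes ruxolitinib pool 1 was highest and pool 3 lowest of the ruxolitinib pools, and all 3 lay above the controls.

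Grap2, an adaptor used mainly by T cells, had 45.4, 43.3 and 23.5 reads per 100 with ruxolitinib, against 10.3, 10.1 and 8.41 in controls (1.96 ± 0.61, edgeR adjusted p = 0.00260). Nfatc1 had 135, 89.8 and 71.8 with ruxolitinib, against 29.4, 26.5 and 20.5 in controls (1.96 ± 0.61, edgeR adjusted p = 0.00262). Ptpn6, Nfatc3, Grap2 and Nfatc1 were the 4 that remained higher in each of the 6 fits that left out a pool. How many of all genes did so was not counted. Nfatc2 had 30.8, 16.3 and 11.7 with ruxolitinib, against 4.49, 5.92 and 6.90 in controls (1.76 ± 0.60, edgeR adjusted p = 0.00657). Vav1 had 90.6, 73.2 and 32.8 with ruxolitinib, against 20.3, 23.3 and 17.2 in controls (1.69 ± 0.60, edgeR adjusted p = 0.00877). Neither Nfatc2 nor Vav1 overlapped between groups.

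Tespa1 had 2.86, 1.89 and 1.00 reads per 100 with ruxolitinib, against 0.240, 0.455 and 0.646 in controls (2.09 ± 0.75, edgeR adjusted p = 0.0102). Malt1 had 18.7, 11 and 7.10 with ruxolitinib, against 2.84, 3.24 and 5.50 in controls (1.66 ± 0.61, edgeR adjusted p = 0.0112). Tespa1 and Malt1 did not overlap either. Lcp2 (1.63 ± 0.60), Bcl10 (1.51 ± 0.60), Plcg1 (1.36 ± 0.59) and Sla (1.27 ± 0.59) had edgeR adjusted p of 0.0117, 0.0188, 0.0340 and 0.0476, and Sla alone of the 12 overlapped between groups. Without ruxolitinib pool 1, control pool 4 or control pool 5, 4 members were higher, and without ruxolitinib pool 3, 18 were, among them Fyn, Rasgrp1, Prkcq, Ptpn22, Cblb and Cd5, which did not pass with all pools. The shares of all genes that were higher in those fits were not counted. Sla did not pass with limma-voom (adjusted p = 0.0681), without a filter on low counts (0.0632) or on the scale of the 4 CD3 genes (0.0592).

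**Figure D4:**
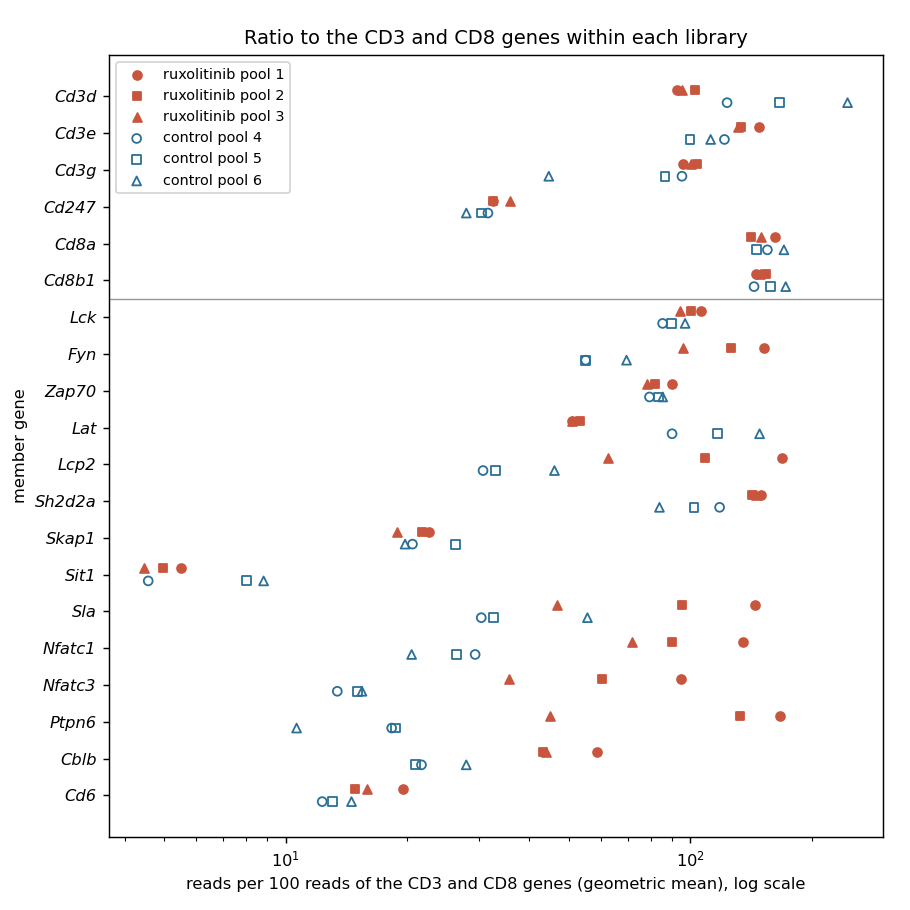
Reads per 100 reads of the CD3 and CD8 genes (horizontal axis, log scale) in every library, for the 6 genes of the scale, each against the other 5 (above the line), and for 14 other members. Ruxolitinib pools are filled red symbols above the open blue symbols of control pools; Lat has ratios of 50.9 to 53.3 with ruxolitinib and 90.1 to 148 in controls, Lck and Zap70 overlap, and Ptpn6 and the NFAT genes lie far to the right with ruxolitinib.

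The members were divided by where they are used, from textbook knowledge. Of 23 members used mainly by T and natural killer cells, 21 fell and Grap2 and Tespa1 did not pass, and the median log2 fold change was -1.45. Of 14 members used by many blood cells, Fyn, Sla, Ptprc and Ptpn22 fell, 10 did not pass and the median was -0.35. Relative to the CD3 and CD8 genes, 2 of the 17 T and natural killer cell members outside the scale were higher, against 10 of the 14 members used by many blood cells. Over all genes 25.3% fell with TMM scaling and 68.5% were higher relative to the CD3 and CD8 genes, shares near those of the members used by many blood cells. The division was made with these results known and the difference was not tested. The lists of erythroid, monocyte, granulocyte and B cell genes were higher in the same libraries, with the ranges given for the plot of marker lists.

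The ruxolitinib pools differed among themselves in the T cell members. The level in pool 3 over the mean of pools 1 and 2 had a median of 2.44 in the 23 T and natural killer cell members (1.13 to 2.84) and of 1.31 in the 14 members of many blood cells (0.798 to 2.30). It was 2.56 for Cd3d, 2.60 for Cd8b1, 2.40 for Lck and 2.55 for Lat, so the ratios between these genes changed little across the ruxolitinib pools. Ptpn6 was lowest at 0.798 and Cblb was highest of the members of many blood cells at 2.30. Among controls, pool 6 had 0.410 times the mean of pools 4 and 5 for Cd3g, 0.428 for Ptpn6, 0.50 for Plcg1, 0.543 for Nfatc1 and 0.564 for Sh2d2a, and 1.92 for Ptprc and 2.79 for Trat1. Control pool 6 thus lay below the other control pools for some members and above them for others.

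**Figure D5:**
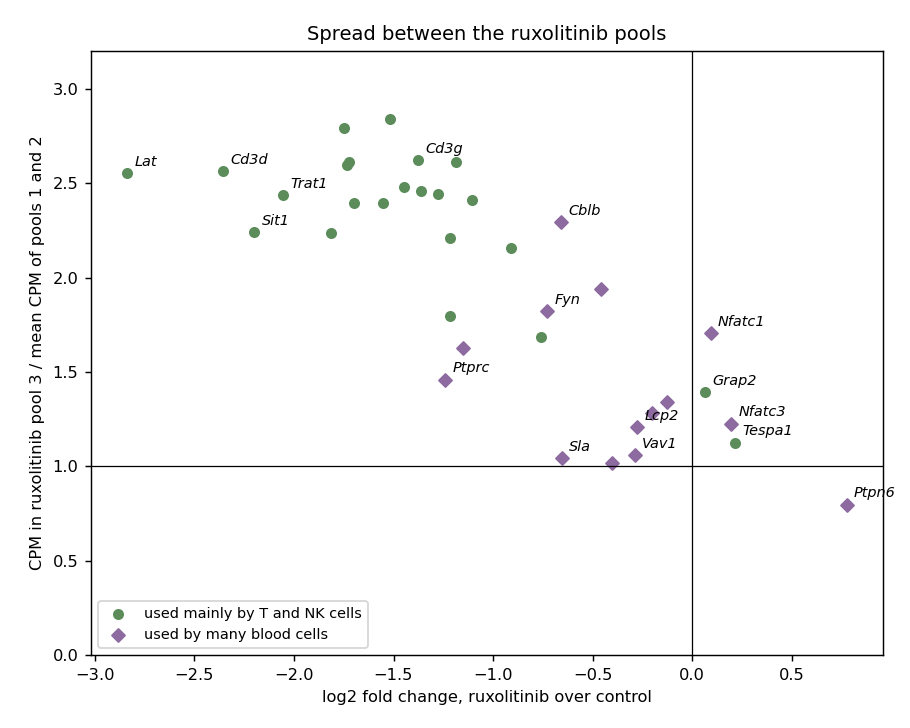
CPM in ruxolitinib pool 3 divided by the mean of ruxolitinib pools 1 and 2 (vertical axis) against the log2 fold change, ruxolitinib over control (horizontal axis), for each of the 37 members. Members used mainly by T and natural killer cells (green circles) gather between 1.69 and 2.84 except Grap2 and Tespa1, and members used by many blood cells (purple diamonds) lie mostly lower; the axes share the ruxolitinib libraries.

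Other genes of the pathway were read from a list of 30, all of which were tested. Of these, 7 fell, 4 rose and 19 did not pass, and the median log2 fold change was -0.16, against shares of 25.3% and 29.9% of all genes. Csk, the kinase that holds Lck inactive and the most abundant of the list by mean over all 6 libraries, had 247.3, 254 and 284 CPM with ruxolitinib and 543, 537 and 488 CPM in controls (-1.0 ± 0.21, edgeR adjusted p = 0.00281). Dgkz, an enzyme that removes the lipid messenger made by Plcg1, had a log2 fold change of -0.16 ± 0.32 (edgeR adjusted p = 0.685). Csk did not overlap between groups. The 4 that rose, named after their values were seen, were the ubiquitin ligase gene Cbl (1.00 ± 0.25), the membrane adaptor gene Pag1 (1.42 ± 0.33), the exchange factor gene Sos1 (0.65 ± 0.25) and the phosphatase gene Ptpn11 (0.59 ± 0.20), with edgeR adjusted p of 0.00726, 0.00507, 0.0499 and 0.0274. Without control pool 4 or control pool 5, 2 of the list rose, and without ruxolitinib pool 1 or pool 2, 4 fell.

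B cells and myeloid cells carry related signalling genes in place of some of the members, such as Syk for Zap70, Lyn for Lck and Blnk for Lcp2. Of 18 such genes, 16 rose, 0 fell and 2 (Lat2 and Prkcb) did not pass, and the median log2 fold change was 2.71. Over all genes 29.9% rose and 25.3% fell. At an unadjusted p under 0.05, 1 of the 18 (Prkcb) was lower, and DESeq2 and limma-voom called 0 as lower. Their summed level was 1749, 1732 and 1194 CPM with ruxolitinib, against 347.1, 295.3 and 340.4 CPM in controls. All ruxolitinib sums lay above all control sums, and pool 3 was the lowest of the ruxolitinib pools. The most abundant by mean over all 6 libraries were Tyrobp (2.58 ± 0.26) and Fcer1g (2.11 ± 0.24), signalling chains of myeloid and natural killer cells that carry the same kind of phosphorylation motif as the CD3 chains (edgeR adjusted p = 7.06e-05 and 0.000110).

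Counts of some members may hold reads of a gene on the other strand, since no source used here states whether strand was used in counting. Plcg1 overlaps Zhx3, whose counts were 11.2% of those of Plcg1, Sla overlaps Tg (9.84%) and Cd247 overlaps Pou2f1 (4.98%). Reads of these pairs cannot be told apart if strand was not used.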

How the data were processed

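RNA was sequenced from 6 libraries, 3 pools of each group, prepared, per the labels' protocols, with NEBNext Ultra II. The authors deposited raw whole-number counts per gene with gene lengths and mm10 positions. The submitters' processing notes name HISAT2 2.0.5 and mm10. No source used here gives the counting program or its strand setting. Totals of 13829808 to 17708196 counts mean that genes near 1 CPM rest on few reads. Columns were matched to samples by name, and 0 columns were left unused.

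The tests on counts used edgeR 4.0.16 under R 4.3.3 (filterByExpr with a minimum count of 10, TMM, robust glmQLFit, glmQLFTest, group as the sole term) over 13480 genes, and p-values were adjusted after Benjamini and Hochberg, with a threshold of 0.05. The SE is the log2 fold change divided by the square root of F. In a second fit the libraries were scaled to the 6 CD3 and CD8 genes by geometric mean. Exact permutation tests, two-sided, compared single sums and ratios. Scripts were tested on simulated data. The alternatives were DESeq2 1.42.0, limma-voom 3.58.1 with and without sample quality weights, other factors, filters and scales, and leaving out each pool.

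All 37 members are named. Values in every library were set for the CD3 and CD8 genes, for members that rose or did not pass, and for members that departed from the CD3 and CD8 genes, up to 8 in each direction. Of other genes, the 2 most abundant of a list and Csk and Cd4 could be named. The results of some genes that this rule or a list takes are left out of the text. The members and lists were chosen with earlier results of these data known. Promoter windows are from RefSeq (GRCm38.p6).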

Additional observations from a re-analysis of the deposited data

How the results depend on the processing

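No paired analysis was possible because the ruxolitinib pools are numbered 1 to 3 and the control pools 4 to 6. The number of members that fell (25) lay between 23 and 28 under the other tools, factors and filters, and between 9 and 26 when single pools were left out. The shares of all genes called under these alternatives were not counted. Members that rose numbered 1 (Ptpn6) in place of 0 with DESeq2, limma-voom with and without quality weights, RLE or upper-quartile factors and no filter, and 0 to 1 with single pools left out. Relative to the CD3 and CD8 genes, 22 members in place of 12 were higher with limma-voom and quality weights and 4 to 18 with single pools left out, and 1 (Lat) was lower with DESeq2 and with quality weights, 0 to 1 with single pools left out. With quality weights 11 pathway genes fell in place of 7, and 4 to 10 with single pools left out. Pathway genes that rose were 2 in place of 4 without a filter, and 2 to 4 with single pools left out. Of the counterparts 1 fell in place of 0 without a filter, with protein-coding genes alone and with quality weights, and 0 to 1 with single pools left out. With single pools left out, Cd3d relative to the other 5 lay between -1.08 and -0.58 and Cd8a between -0.11 and 0.0054.

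Signs of values near 0 turned. With quality weights the log2 fold changes of Grap2, Nfatc1 and Nfatc3 were -0.15, -0.27 and -0.0085. With single pools left out, Grap2 lay between -0.15 and 0.23, Nfatc1 between -0.22 and 0.33, Nfatc2 between -0.29 and 0.0762 and Tespa1 between -0.0188 and 0.39. Relative values of Skap1, Trat1 and Cd2 were 0.31, 0.0728 and 0.31 on the scale of the receptor constant genes and Thy1, Zap70 was -0.0189 on the CD3 scale, and Cd2 was 0.0029 on the CD8 scale and 0.15 with limma-voom. With single pools left out these values lay between -0.15 and 0.0627 (Skap1), -1.18 and 0.46 (Trat1), -0.40 and 0.28 (Cd2), and -0.0490 and 0.0538 (Zap70). The cause was not tested. Of 555 member values under alternatives to the TMM fit, 483 kept their direction and side of the threshold, 50 lost and 13 gained the call, and 9 turned sign. Of 465 relative values the numbers were 395, 33, 24 and 13. With 3 pools a group, many changes near 2-fold can be missed, and the SE of relative values is about 0.6. In the simulated data edgeR with TMM called 26 of 100 genes changed 2-fold and 89 of 100 changed 4-fold. On the scale of the CD3 and CD8 genes it called 7 of 50 genes that were simulated with the same 4-fold fall as the scale. A call on that scale can thus fall on a gene simulated not to depart.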
